A study of Mus musculus with 12 samples.

Results

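The genes described here encode the constitutive proteasome, and they were taken by symbol: every entry of the array table named Psma, Psmb, Psmc, Psmd or Psme followed by a digit, without the immunoproteasome genes Psmb8, Psmb9 and Psmb10. The rule found 38 of 18138 symbols. They fall into 7 core alpha subunits, 7 core beta subunits, 9 base subunits, 7 lid subunits, 4 activators and 3 chaperones that assemble the base. The 38th symbol, Psmc3ip, fits the pattern of letters but encodes a partner of the meiotic recombinases and no proteasome subunit, so it is given apart. The symbol rule used no measured value. Psma8, Psmb11 and Psmd3 were not analysed here.

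RNA was measured on 12 one-colour arrays in thymic T cells that carried both CD4 and CD8, from C57BL6/J mice of 8 to 12 weeks and both sexes. The groups, with 3 arrays each, were CD71-positive cells of Caph2nes/nes mice, CD71-positive cells of Caph2+/+ mice, CD71-negative cells of Caph2nes/nes mice and CD71-negative cells of Caph2+/+ mice. Caph2nes/nes mice, called mutant below, carry the I15N missense change in Caph2 (Ncaph2, a subunit of condensin II, which compacts chromosomes), Caph2+/+ mice are wild type, and all cells came from a low forward scatter gate. CD71 is the transferrin receptor, which dividing cells display. The labels do not say whether the 3 arrays of a group came from separate mice, so p-values measure the spread between these arrays, which may be technical. The study set mutant against wild type within matched cells.

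The proteasome degrades proteins that carry ubiquitin chains. Its core particle is a barrel of stacked rings, with structural alpha subunits outside and beta subunits inside, of which Psmb5, Psmb6 and Psmb7 carry the active sites. The regulatory particle sits on the barrel's end: the ATPases of its base unfold the substrate, ubiquitin receptors in the base hold it, and the lid removes the ubiquitin. Other activators can bind in its place, and dividing cells use the proteasome to degrade cyclins and securin.

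Signals were background corrected, normalised between arrays and put on a log2 scale, on which all levels and differences below are given. Of the 38 genes, 33 had a detection p-value under 0.05 on at least 3 arrays and were tested with limma among 8247 genes, 25 of them detected on all 12 arrays and 8 on 3 to 11. The other 5, the core genes Psma1, Psma3 and Psma6, the base scaffold gene Psmd2 and the base chaperone gene Psmd5, were detected on 0 to 2 arrays and had levels of 5.36 to 5.52 on every array. "Higher" and "lower" without further words mean an adjusted p under 0.05 (Benjamini-Hochberg over all genes of a comparison), and ± is the standard error of the fit.

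Mean signal ran between 95.1 and 203 per array, with 5893 to 7415 genes detected, of which 26 to 32 were proteasome genes. Tfrc, which encodes CD71, was higher in the CD71-positive cells of both genotypes, by 1.30 ± 0.28 in mutants and by 1.15 ± 0.28 in wild type. Ncaph2 differed by -0.04 ± 0.16 between mutant and wild-type CD71-positive cells and by -0.11 ± 0.16 between CD71-negative cells, and a missense change need not alter its mRNA, so this does not check the labels. Cd8a was detected on no array, while Cd8b1 and Cd4 were detected on all. In CD71-positive against CD71-negative cells, 11 of 12 tested proliferation markers were higher and 8 of 9 tested markers of thymocytes with both CD4 and CD8 were lower, in each genotype. The fewer arrays a group has, the less precise its values, and 3 a group is the limit here.

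More proteasome genes were higher than lower in the CD71-positive subset. In mutants 14 of the 33 were higher and 1 was lower, with a median difference of 0.40. Over all genes 14.5% were higher and 14.3% lower, or 28.8% in either direction, with a median of -0.01. In wild type 17 were higher and 2 lower, with a median of 0.52, while over all genes 12% were higher and 13.1% lower, or 25.1% together, with a median of -0.01. Averaged over both genotypes 20 were higher and 2 lower, against 18.9% and 21.8% of all genes (40.7% in either direction). Proteasome genes were detected more often than all genes, with 25 of 33 detected on all 12 arrays, against 4023 of 8247. In a fit of those genes alone, 14 of 25 (56%) were called in mutants, against 42.2% of genes. In wild type 18 of 25 (72%) were, against 36.9%. Of the 33, 12 genes were higher in both genotypes, 1 was lower in both, and 12 passed in neither. Arrays of the subsets did not overlap for 19 genes upward and 3 downward in mutants, where 21.7% and 25.1% of all genes (46.9% together) were so separated. In wild type that held for 19 upward and 1 downward, against 18.7% and 21% of all genes (39.7% together). The summed level of the 14 proliferation markers on the array moved with these counts, at 6258 to 6728 in CD71-positive mutant arrays against 912 to 1237 in CD71-negative mutant arrays, and at 5745 to 6998 against 859 to 889 for the same subsets of wild type (normalised signal, not logged). Its part in the difference was not tested, and in sorted bulk samples more cells expressing a gene and more RNA per cell cannot be told apart. The wild-type count fell when any 1 wild-type array was left out. Without CD71-positive replicate 1 it was 10 of 33 (30.3%), all of them among the 19. The share of all genes called was 18.5% there, against 25.1% with all arrays. Without any other single wild-type array the count was 13 to 17, with 20.2% to 23.5% of all genes called.

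**Figure D1:**
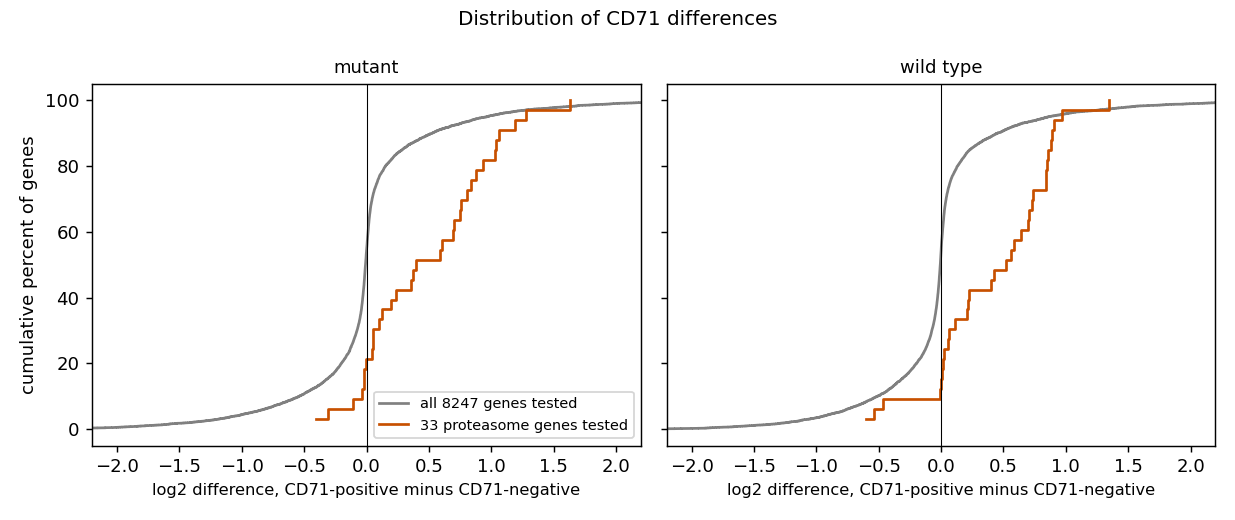
Cumulative percent of genes (vertical axis) against the log2 difference between CD71-positive and CD71-negative cells (horizontal axis, shown from -2.2 to 2.2), in mutants (left) and wild type (right). The grey line holds all 8247 genes tested and the orange line the 33 proteasome genes; the orange line lies to the right of the grey one over most of its height, with medians of 0.40 and 0.52.

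Promoter sequence was held for 33 of the 38 genes, in 36 windows of 300 bases that run from 250 bases before a start site to 50 after it (RefSeq, GRCm38.p6, read along the gene's strand). The windows were searched on both strands for TGACNNNGC, the core of the antioxidant response element that the proteasome gene regulator Nfe2l1 and its relatives bind, and for CCAAT, the box that the factor NF-Y binds; the motifs share no required stretch. TGACNNNGC was in 6 of the 36 windows (16.7%), against 12.4% of all 32851 promoter windows, and CCAAT in 13 (36.1%), against 37.4%. The 4 windows below are those of Psmd12, the gene with TGACNNNGC that was higher in both genotypes, of Psma7, the core alpha gene with the largest CD71 difference averaged over both genotypes, of Psmd13, a lid gene that was higher in both genotypes and has neither motif, and of Psmd4, the gene that was lower in both genotypes. They lie at chr11:107479278-107479577 (plus strand), chr2:180042415-180042714 (minus), chr7:140882144-140882443 (plus) and chr3:95042565-95042864 (minus), with motif matches in capitals, on either strand.
Psmd12: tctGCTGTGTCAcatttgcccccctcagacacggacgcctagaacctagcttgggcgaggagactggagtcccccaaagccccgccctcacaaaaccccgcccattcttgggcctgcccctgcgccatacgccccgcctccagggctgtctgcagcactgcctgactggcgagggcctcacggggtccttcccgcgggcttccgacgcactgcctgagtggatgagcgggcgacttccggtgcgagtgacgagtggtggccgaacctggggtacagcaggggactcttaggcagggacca
Psma7: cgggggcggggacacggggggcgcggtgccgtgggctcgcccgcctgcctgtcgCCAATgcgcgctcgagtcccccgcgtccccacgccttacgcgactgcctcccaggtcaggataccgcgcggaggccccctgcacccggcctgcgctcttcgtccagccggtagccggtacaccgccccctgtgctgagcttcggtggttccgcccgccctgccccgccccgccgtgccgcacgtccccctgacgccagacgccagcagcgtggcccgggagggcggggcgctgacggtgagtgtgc
Psmd13: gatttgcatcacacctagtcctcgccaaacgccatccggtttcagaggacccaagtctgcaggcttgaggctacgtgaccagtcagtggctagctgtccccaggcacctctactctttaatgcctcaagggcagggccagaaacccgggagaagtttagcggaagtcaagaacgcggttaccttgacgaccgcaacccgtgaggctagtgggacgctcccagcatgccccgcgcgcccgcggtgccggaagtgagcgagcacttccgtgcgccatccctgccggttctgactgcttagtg
Psmd4: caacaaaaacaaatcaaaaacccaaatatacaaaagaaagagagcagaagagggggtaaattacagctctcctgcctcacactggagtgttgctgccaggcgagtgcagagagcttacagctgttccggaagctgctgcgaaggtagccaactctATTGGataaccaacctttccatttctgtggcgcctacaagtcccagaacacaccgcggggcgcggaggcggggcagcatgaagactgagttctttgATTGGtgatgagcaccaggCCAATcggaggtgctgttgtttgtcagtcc
The match in Psmd12 began at position -247 from the start site and lay on the opposite strand, and the one in Psma7 at -196. Psmd4 had 3 CCAAT matches, at -95, 2 and 21. A match describes letters only, and its absence says only that these letters are not in the window.

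Among core alpha genes, which encode the outer rings of the barrel, Psma4, Psma5 and Psma7 were higher in the CD71-positive cells of both genotypes. Psma7, whose promoter window is printed above, had levels of 9.02, 9.06 and 8.88 in mutant CD71-positive cells, against 7.89, 7.99 and 7.97 in mutant CD71-negative cells. In wild type it had 8.64, 8.69 and 8.65 in CD71-positive cells, against 7.71, 8.15 and 7.91 in CD71-negative cells. No array of one subset reached the other, and the differences were 1.04 ± 0.10 (2.05-fold, adjusted p = 6.37e-05) in mutants and 0.74 ± 0.10 (1.67-fold, adjusted p = 0.000488) in wild type. Psma4 was higher by 0.70 ± 0.16 and 0.84 ± 0.16 in mutants and wild type, and Psma5 by 0.69 ± 0.14 in each.

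Psma2 had the smallest CD71 difference of the 4 tested alpha genes. Its levels were 11.39, 11.42 and 11.93 in mutant CD71-positive cells against 11.08, 11.44 and 11.52 in mutant CD71-negative ones, and 11.63, 11.18 and 11.57 in wild-type CD71-positive cells against 11.03, 10.87 and 11.28 in wild-type CD71-negative cells. The subsets overlapped in both genotypes. The differences of 0.23 (95% interval -0.20 to 0.67) and 0.40 (-0.03 to 0.83) did not pass.

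Of the 7 core beta genes, Psmb2 and Psmb7 were higher in the CD71-positive cells of both genotypes. Psmb1 passed in mutants and Psmb3, Psmb4 and Psmb6 in wild type, but the test of the difference between the genotypes called none of the 33 genes, against 0.0121% of all genes. Psmb1 was kept in 16 of 21 alternatives and lost without mutant CD71-negative replicate 2 or 3 or mutant CD71-positive replicate 1 or 2 (adjusted p up to 0.112). Psmb3 was kept in 17 and lost without replicate 1 of either wild-type subset (up to 0.0673). Psmb4 was kept in 16 and lost without wild-type CD71-negative replicate 2 or 3 or wild-type CD71-positive replicate 1 or 3 (up to 0.0734). Psmb6 was kept in 20, with the call held under every array left out. Psmb2, a structural subunit of the inner rings, had levels of 9.71, 9.73 and 9.55 in mutant CD71-positive cells against 8.93, 8.82 and 8.62 in mutant CD71-negative ones, and 9.47, 9.27 and 9.34 in wild-type CD71-positive cells against 8.47, 8.55 and 8.40 in wild-type CD71-negative cells. The subsets were apart by 0.88 ± 0.09 in each genotype. Its detection p-value passed on 6 of the 12 arrays even so.

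The 3 catalytic genes differed in how clearly the subsets separated. Psmb7, which encodes the trypsin-like site, had levels of 8.42, 8.27 and 7.82 in mutant CD71-positive cells against 7.61, 7.21 and 6.90 in mutant CD71-negative cells. In wild type it had 8.01, 7.99 and 7.64 in CD71-positive cells against 7.23, 7.15 and 6.73 in CD71-negative cells. Every CD71-positive array of a genotype was above every CD71-negative one, and the differences were 0.93 ± 0.22 (adjusted p = 0.0125) and 0.85 ± 0.22 (adjusted p = 0.0221). The mutant call was lost without mutant CD71-positive replicate 1 (0.80, adjusted p = 0.0516), and the wild-type call without wild-type CD71-negative replicate 3 (0.70, 0.0687) or wild-type CD71-positive replicate 1 or 2 (0.79 each, 0.0758 and 0.0686).

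Psmb6, which encodes the caspase-like site, had 9.17, 9.01 and 8.97 in mutant CD71-positive cells against 8.79, 8.58 and 8.70 in mutant CD71-negative ones, and 9.13, 8.60 and 9.13 in wild-type CD71-positive cells against 8.42, 8.29 and 7.96 in wild-type CD71-negative cells. The arrays did not overlap in either genotype. The wild-type difference of 0.73 ± 0.16 passed (adjusted p = 0.00873) and the mutant one of 0.36 ± 0.16 did not (adjusted p = 0.128). Psmb5, which encodes the chymotrypsin-like site, had the smallest difference of the beta genes averaged over both genotypes, while in mutants alone Psmb4, a structural beta subunit, had the smaller value, 0.12 ± 0.15. Its levels were 6.05, 5.97 and 5.57 in mutant CD71-positive cells against 5.80, 5.59 and 5.63 in mutant CD71-negative ones, and 5.78, 5.80 and 5.72 in wild-type CD71-positive cells against 5.50, 5.64 and 5.51 in wild-type CD71-negative cells. It differed by 0.19 (95% interval -0.06 to 0.45) in mutants, where 1 array overlapped, and by 0.22 (-0.04 to 0.47) in wild type. Without mutant CD71-positive replicate 3 both of its differences passed, at 0.34 (adjusted p = 0.00798) in mutants and 0.22 (0.0367) in wild type.

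**Figure D2:**
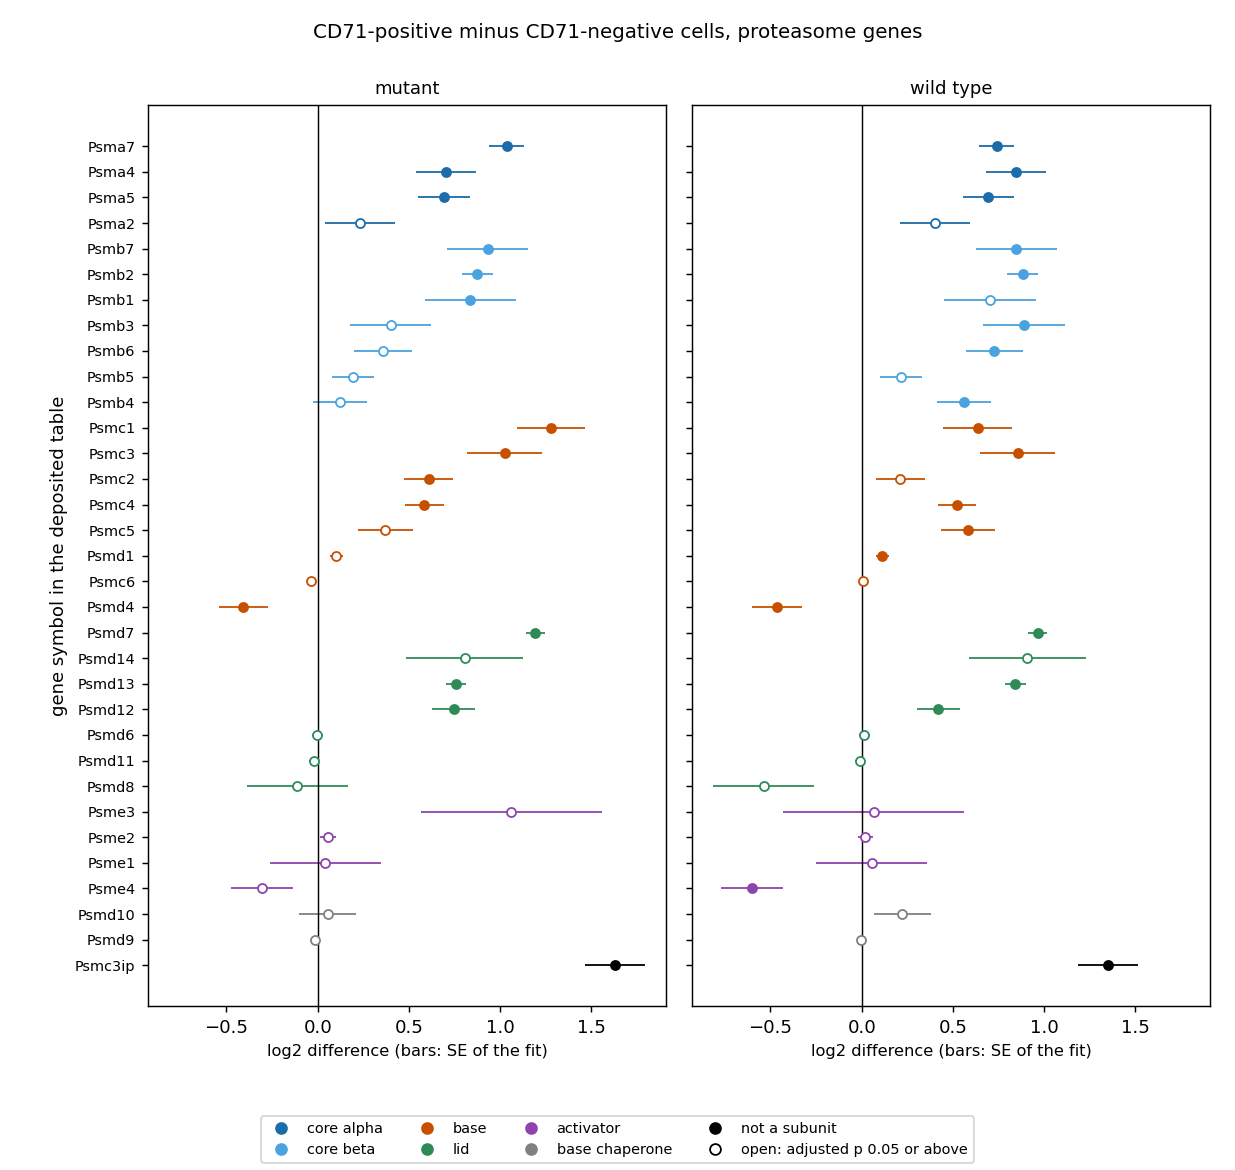
Log2 difference between CD71-positive and CD71-negative cells for each of the 33 tested genes (points, coloured by class; bars are the standard error of the fit), in mutants (left) and wild type (right). Filled points have an adjusted p under 0.05: 14 lie right of 0 and 1 left of it in mutants, 17 and 2 in wild type, and the activators and base chaperones hold no filled point on the right.

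The base held genes that moved in both directions. Of its 8 tested genes, 4 were higher and 1 lower in mutants, and 5 higher and 1 lower in wild type. The ATPase genes Psmc1, Psmc3 and Psmc4 were higher in both genotypes. Psmc1 had levels of 8.09, 8.02 and 8.01 in mutant CD71-positive cells against 6.36, 6.86 and 7.06 in mutant CD71-negative ones, and 7.86, 7.66 and 7.22 in wild-type CD71-positive cells against 7.01, 6.96 and 6.86 in wild-type CD71-negative cells. All CD71-positive arrays were above the CD71-negative ones. Its difference of 1.28 ± 0.19 in mutants (2.43-fold, adjusted p = 0.000888) was the largest of any subunit gene there. In wild type it was 0.64 ± 0.19 (adjusted p = 0.0351), a call kept in 9 of 21 alternative analyses and in 4 of the 12 that leave out 1 array (adjusted p 0.0114 to 0.116). It was lost without any one of the wild-type CD71-negative arrays, of the mutant CD71-positive arrays, or of wild-type CD71-positive replicates 1 and 2.

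The ATPase genes Psmc3 and Psmc4 were higher by 1.03 ± 0.21 and 0.59 ± 0.11 in mutants and by 0.86 ± 0.21 and 0.52 ± 0.11 in wild type. Psmc2 was higher by 0.61 ± 0.13 in mutants and differed by 0.21 ± 0.13 in wild type (adjusted p = 0.305), and Psmc5 was higher by 0.59 ± 0.15 in wild type and differed by 0.37 ± 0.15 in mutants (adjusted p = 0.0926). The wild-type Psmc5 call was kept in 16 of 21 alternatives and lost without wild-type CD71-negative replicate 3 or wild-type CD71-positive replicate 1 (adjusted p up to 0.0704), and the mutant value passed without mutant CD71-positive replicate 2 (0.0454). The sixth ATPase gene, Psmc6, was detected on 4 arrays, none of them mutant CD71-positive, and was at least 1.01-fold higher in mutant CD71-negative cells, which did not pass (adjusted p = 0.225). Psmd1, a scaffold of the base, had low levels of 5.38 to 5.64 over all arrays. It differed by 0.10 ± 0.03 in mutants and 0.11 ± 0.03 in wild type, where it just passed (adjusted p = 0.0425). The wild-type call was kept in 8 of 20 alternatives and in 2 of the 12 that leave out 1 array. The mutant value passed only in some alternatives, among them without mutant CD71-positive replicate 3 (0.14, adjusted p = 0.0158) and with the authors' processed values (0.26, 0.0203).

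Psmd4, whose product binds ubiquitin chains at the base, went the other way. Its levels were 9.88, 9.95 and 9.91 in mutant CD71-positive cells against 10.27, 10.39 and 10.29 in mutant CD71-negative cells. In wild type they were 9.93, 9.88 and 10.43 in CD71-positive cells against 10.63, 10.64 and 10.37 in CD71-negative cells, and there 1 CD71-positive array overlapped. The differences were -0.41 ± 0.13 in mutants (0.754-fold, adjusted p = 0.0497) and -0.46 ± 0.13 in wild type (0.725-fold, adjusted p = 0.0328). Neither call was firm: they were kept in 7 and 13 of 21 alternatives, and leaving out 1 array gave adjusted p-values of 0.00368 to 0.136 and 0.000772 to 0.114. The wild-type call was lost without replicate 1 or 2 of either wild-type subset, and the mutant one without any one of the mutant arrays, of wild-type CD71-negative replicates 1 and 2, or of wild-type CD71-positive replicate 1. The difference was below 0 in all 21 alternatives in both genotypes.

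Of the 7 lid genes, Psmd7, Psmd12 and Psmd13 were higher in both genotypes, and Psmd14 joined them when both genotypes were averaged. Psmd7, whose product pairs with the lid's deubiquitinating enzyme, had levels of 7.62, 7.64 and 7.72 in mutant CD71-positive cells against 6.45, 6.50 and 6.46 in mutant CD71-negative ones, and 7.58, 7.62 and 7.50 in wild-type CD71-positive cells against 6.53, 6.71 and 6.55 in wild-type CD71-negative cells. The gap between the subsets was far wider than the spread within them, at 1.19 ± 0.05 in mutants (2.29-fold, adjusted p = 1.03e-06) and 0.97 ± 0.05 in wild type (1.95-fold, adjusted p = 3.12e-06). Psmd13, a structural lid subunit, had 9.66, 9.71 and 9.78 in mutant CD71-positive cells against 8.96, 9.04 and 8.87 in mutant CD71-negative ones, and 9.69, 9.73 and 9.79 in wild-type CD71-positive cells against 8.91, 8.97 and 8.80 in wild-type CD71-negative cells. It was higher by 0.76 ± 0.06 and 0.84 ± 0.06.

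Psmd12, another structural lid subunit, had levels of 7.07, 7.33 and 7.34 in mutant CD71-positive cells against 6.43, 6.45 and 6.63 in mutant CD71-negative ones, and 7.15, 7.09 and 6.73 in wild-type CD71-positive cells against 6.54, 6.50 and 6.66 in wild-type CD71-negative cells. The difference was 0.75 ± 0.12 in mutants (adjusted p = 0.0014) and 0.42 ± 0.12 in wild type (adjusted p = 0.0288), the second kept in 12 of 21 alternatives. Leaving out 1 array gave it an adjusted p of 0.00454 to 0.107, and it was lost without replicate 1 or 2 of either wild-type subset. The difference between these 2 values, 0.32 ± 0.17, did not pass (adjusted p = 0.917).

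The deubiquitinating enzyme itself, Psmd14, differed by 0.81 ± 0.32 in mutants and 0.91 ± 0.32 in wild type and passed in neither (adjusted p = 0.0926 and 0.0694), with a within-group SD of 0.42. These values were larger than those of Psmd12, and the average over both genotypes, 0.86 ± 0.23, passed (adjusted p = 0.0141). The wild-type value passed in 7 of 21 alternatives, 2 of them without wild-type CD71-negative replicate 3 (1.10, adjusted p = 0.0484) or wild-type CD71-positive replicate 2 (1.22, 0.0257), and the mutant value in 2 of 21. Psmd8, a structural lid subunit, had levels of 7.80, 7.69 and 7.49 in mutant CD71-positive cells against 7.92, 7.50 and 7.89 in mutant CD71-negative ones, and 7.45, 7.56 and 7.17 in wild-type CD71-positive cells against 8.05, 8.50 and 7.24 in wild-type CD71-negative cells. Its subsets overlapped in both genotypes, and its differences of -0.11 ± 0.28 and -0.54 ± 0.28 did not pass, though without wild-type CD71-negative replicate 3 the wild-type one was -0.89 (adjusted p = 0.0101). Psmd6 and Psmd11 were detected on 7 and 4 arrays and differed by at most 0.02 in either genotype.

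**Figure D3:**
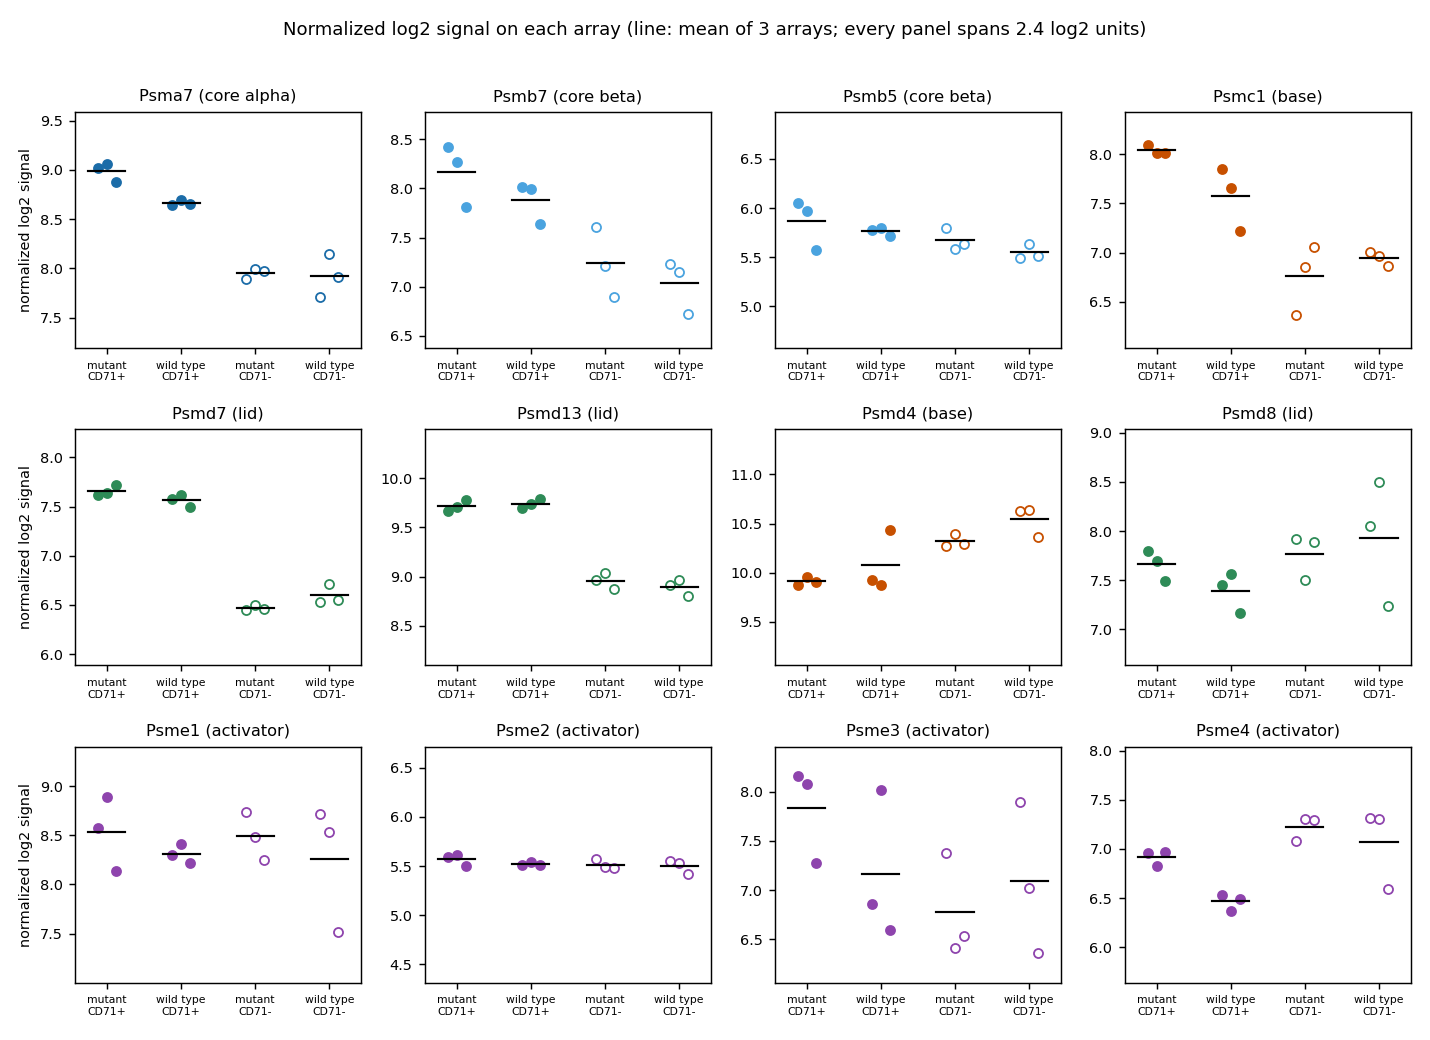
Normalised log2 signal of 12 proteasome genes on each array (points; lines are the mean of 3 arrays), with the CD71-positive groups on the left and the CD71-negative ones on the right, mutant before wild type in each. Every panel spans the same 2.4 log2 units; Psmd7 and Psmd13 separate the subsets by more than the spread of any group, Psmd4 is lower in CD71-positive cells, and the points of Psme3 scatter widely within each wild-type group.

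Of the activators, which replace the regulatory particle or cap the other end of the barrel, none was higher in CD71-positive cells. Psme1, a subunit of the interferon-inducible activator, had levels of 8.58, 8.89 and 8.13 in mutant CD71-positive cells against 8.74, 8.48 and 8.25 in mutant CD71-negative ones, and 8.30, 8.41 and 8.22 in wild-type CD71-positive cells against 8.72, 8.53 and 7.51 in wild-type CD71-negative cells. Its partner Psme2 had 5.59, 5.61 and 5.50 against 5.57, 5.49 and 5.48 in the same mutant subsets, and 5.51, 5.54 and 5.51 against 5.55, 5.53 and 5.42 in the wild-type ones. Neither gene separated the subsets, and the differences lay between 0.02 and 0.06. The 95% intervals were -0.64 to 0.73 and -0.63 to 0.74 for Psme1 and -0.04 to 0.15 and -0.08 to 0.12 for Psme2, mutant before wild type.

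Psme3, the nuclear activator, had 8.16, 8.08 and 7.27 in mutant CD71-positive cells against 7.37, 6.41 and 6.53 in mutant CD71-negative ones, and 6.86, 8.02 and 6.59 in wild-type CD71-positive cells against 7.90, 7.02 and 6.36 in wild-type CD71-negative cells. Its within-group SD of 0.65 was the highest of the 33 genes, whose median was 0.19, against 0.08 over all genes. The differences of 1.06 ± 0.50 in mutants and 0.07 ± 0.50 in wild type did not pass. Psme4, which encodes a large activator linked to DNA repair, had 6.96, 6.83 and 6.97 in mutant CD71-positive cells against 7.08, 7.30 and 7.29 in mutant CD71-negative ones, and 6.54, 6.37 and 6.49 in wild-type CD71-positive cells against 7.31, 7.30 and 6.59 in wild-type CD71-negative cells. No arrays overlapped in either genotype. Psme4 was detected on 8 arrays in all, 2 of them in each mutant subset. Detection ran against the levels in wild type, where 1 CD71-negative array and 3 CD71-positive arrays detected Psme4. It was lower in wild type (-0.60 ± 0.17, 0.659-fold, adjusted p = 0.0302, kept in 11 of 20 alternatives) and differed by -0.31 ± 0.17 in mutants (adjusted p = 0.225), where it passed without wild-type CD71-negative replicate 3 (adjusted p = 0.0123). The wild-type call was lost without any one of the wild-type CD71-positive arrays or without wild-type CD71-negative replicate 1 or 2 (adjusted p 0.000213 to 0.102 over all arrays left out).

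Both tested base chaperones stayed uncalled. Psmd10 had levels of 6.59, 6.34 and 6.64 in mutant CD71-positive cells against 6.23, 6.53 and 6.64 in mutant CD71-negative ones, and 6.90, 6.33 and 6.51 in wild-type CD71-positive cells against 6.36, 6.22 and 6.48 in wild-type CD71-negative cells, with overlap in both. Psmd9 was detected on 5 arrays, none of them wild-type CD71-positive, and differed by -0.02 in mutants. Psmc3ip, which is not a subunit, had the largest difference of the 33: its levels were 7.99, 7.85 and 7.65 in mutant CD71-positive cells against 6.30, 6.09 and 6.21 in mutant CD71-negative ones, and 7.73, 7.36 and 7.00 in wild-type CD71-positive cells against 6.12, 5.92 and 5.99 in wild-type CD71-negative cells, or 1.63 ± 0.16 and 1.35 ± 0.16. Without it, 13 of 32 genes were higher in mutants and 16 of 32 in wild type.

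No proteasome gene passed the test between mutant and wild type. In CD71-positive cells 0 of the 33 were called, against 0.424% of all genes. An unadjusted p under 0.05 was found there for 5 of the 33 and for 705 of all 8247 genes. In CD71-negative cells 0 were called, again against 0.424%, with 6 at an unadjusted p under 0.05, against 859 of all 8247 genes. Over the mean of both subsets 0 were called, against 0.909%, with 9 at an unadjusted p under 0.05, against 1076 of all 8247 genes. Arrays of the genotypes did not overlap for 5 genes in CD71-positive cells, all higher in mutants, where 7.25% of all genes were so separated upward and 7.35% downward (14.6% together), and for 6 upward and 1 downward in CD71-negative cells, where 7.53% and 6.98% were (14.5% together).

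All tested core genes had uncalled differences above 0 between mutant and wild type. In CD71-positive cells 11 of 11 tested core genes had a difference above 0, with a median of 0.23, and in CD71-negative cells 11 of 11, with a median of 0.26, against a median of 0.00 over all genes in each subset. Over 21 alternative analyses the count was 8 to 11 in CD71-positive and 9 to 11 in CD71-negative cells. A difference above 0 was not confined to the core. It was found for 27 of the 33 genes in CD71-positive cells and for 24 in CD71-negative cells. Over all genes it was found for 3866 and 4078 of 8247. All 4 activators were above 0 in CD71-positive cells (median 0.34), and 3 of the 4 in CD71-negative cells (median 0.08). Core genes are not replicates of the genotype, and none passed alone. In CD71-negative cells the highest values were 0.76 ± 0.22 for Psmb3, 0.53 ± 0.15 for Psmb4, 0.47 ± 0.16 for Psmb6 and 0.32 ± 0.09 for Psmb2 (adjusted p = 0.225, 0.202, 0.297 and 0.191).

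Psmb2 came nearest to the threshold. Its mutant and wild-type arrays, given above, did not overlap in either subset, and the mean of both subsets differed by 0.31 ± 0.06 (1.24-fold, adjusted p = 0.055). That value passed in 5 alternatives, among them the ones without wild-type CD71-positive replicate 1 (0.34, adjusted p = 0.044) and without mutant CD71-negative replicate 3 (0.36, adjusted p = 0.0301). Of the base ATPase genes, 5 of 6 were above 0 in CD71-positive cells and 2 of 6 in CD71-negative cells, with medians of 0.11 and -0.08. Psmd13 differed by -0.02 (95% interval -0.15 to 0.11) in CD71-positive and 0.06 (-0.06 to 0.19) in CD71-negative cells.

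**Figure D4:**
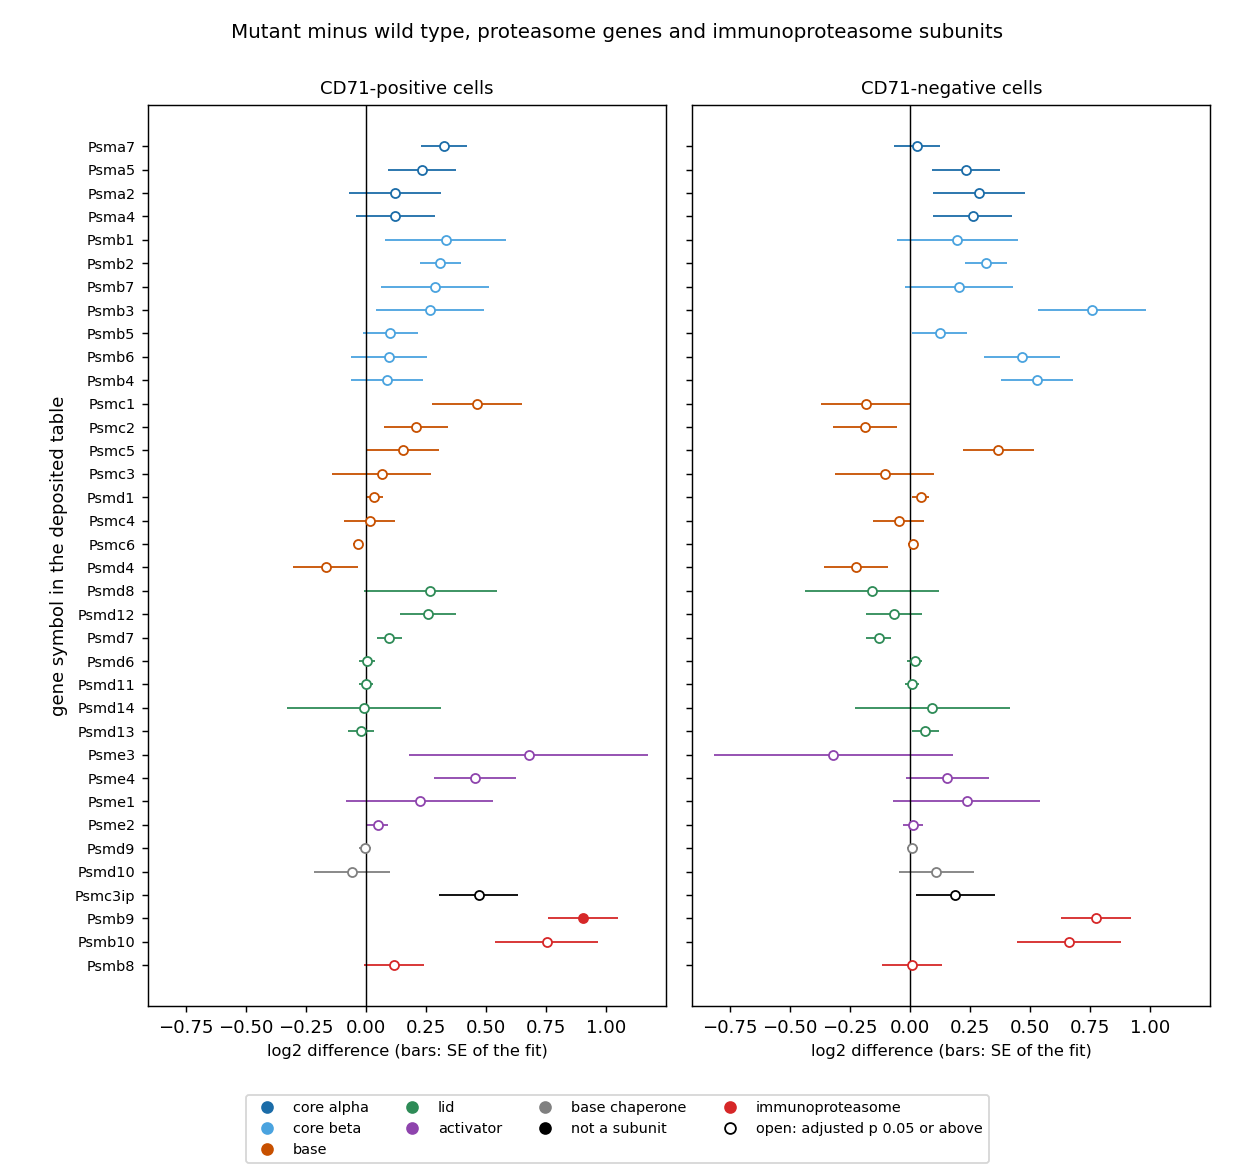
Log2 difference between mutant and wild type for the 33 tested proteasome genes and the 3 immunoproteasome genes (points, coloured by class; bars are the standard error of the fit), in CD71-positive (left) and CD71-negative cells (right). The 11 core genes lie right of 0 in both panels with open points, and the only filled point, with an adjusted p under 0.05, is Psmb9 in CD71-positive cells.

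The immunoproteasome genes encode interferon-inducible catalytic subunits that take the place of the constitutive ones, Psmb8 for Psmb5, Psmb9 for Psmb6 and Psmb10 for Psmb7. Psmb9 was higher by 0.90 ± 0.15 in mutant than in wild-type CD71-positive cells (1.87-fold, adjusted p = 0.0435) and differed by 0.77 ± 0.15 in CD71-negative cells (adjusted p = 0.0692), beside 0.09 ± 0.16 and 0.47 ± 0.16 for Psmb6. The Psmb9 call in CD71-positive cells was kept in 7 of 21 alternatives, and over both subsets it was higher by 0.84 ± 0.10 (adjusted p = 0.0103), a call kept in 19 of 20. Psmb10 differed by 0.75 ± 0.22 and 0.66 ± 0.22 without passing, beside 0.29 ± 0.22 and 0.20 ± 0.22 for Psmb7, and Psmb8 differed by 0.12 ± 0.12 and 0.01 ± 0.12. Between the CD71 subsets, Psmb9 was higher in CD71-positive cells of mutants by 1.11 ± 0.15 and of wild type by 0.98 ± 0.15.

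Some markers of myeloid and dendritic cells differed between the CD71 subsets. Of 9 tested, 7 were higher in the CD71-positive subset of mutants (median 1.10), where 14.5% of all genes were, and 0 in that of wild type (median 0.45), where 12% were. The test of the difference between these called 0 of the 9, and so did mutant against wild type in CD71-positive cells (median 0.92). The summed level of the 13 on the array was 1066 to 2982 in the CD71-positive subset of mutants, against 841 to 1113 in that of wild type, and 807 to 866 in the CD71-negative subset of mutants, against 670 to 748 in that of wild type (normalised signal, not logged). Of the 13, Itgax, Itgam and Lyz1 were detected on no CD71-positive array, and Csf1r and Tyrobp on some. Lyz, Lyz2, Fcer1g, Cst3, Cd74, H2-Aa, H2-Ab1 and H2-Eb1 were detected on all CD71-positive arrays. The part of these markers in the proteasome and immunoproteasome values was not tested. Erythroid markers were near background in all groups, with 0 of 7 tested, and 1 of 5 B cell and 2 of 7 thymic epithelial markers were tested, with 1 call among them, Cd79b, lower in the CD71-positive subset of mutants (-0.29 ± 0.07).

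Some genes around the proteasome were called between the CD71 subsets. Over all genes 14.5% were higher and 14.3% lower in mutants (28.8% together), and 12% and 13.1% in wild type (25.1% together). Whether any of the lists below departs from these shares was not tested. Of 7 tested genes for other proteasome-bound and regulatory proteins, 2 were higher in each genotype: Uchl5, a deubiquitinating enzyme of the base, by 1.10 ± 0.13 in mutants and 1.14 ± 0.13 in wild type, and Psmf1, which encodes an inhibitor that binds the core, by 0.53 ± 0.11 and 0.48 ± 0.11. The deubiquitinating enzyme gene Usp14 differed by 0.14 ± 0.08 and 0.11 ± 0.08. Of 3 tested assembly genes, the core chaperone genes Psmg2 and Psmg3 were higher in mutants by 0.86 ± 0.15 and 0.72 ± 0.16 and differed by 0.45 ± 0.15 and 0.42 ± 0.16 in wild type (adjusted p = 0.0614 and 0.0905), while Pomp, needed to mature the core, differed by 0.24 ± 0.10 and 0.20 ± 0.10.

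Of 7 tested ubiquitin shuttle and p97 genes, 1 was higher in mutants, and 1 higher and 1 lower in wild type, beside the all-gene shares given above. Rad23b, a shuttle that carries ubiquitinated proteins to the proteasome, was higher by 0.22 ± 0.07 in mutants and 0.23 ± 0.07 in wild type. Each Rad23b call was kept in 14 of 21 alternatives. The mutant one was lost without any one of the mutant arrays but CD71-positive replicate 2, and the wild-type one without wild-type CD71-negative replicate 2 or 3 or wild-type CD71-positive replicate 1 or 2 (adjusted p up to 0.109 and 0.107). The lower one was Vcp, the p97 unfoldase gene, at -0.25 ± 0.07 in wild type, named after its value was seen. It was kept in 15 of 21 alternatives and lost without wild-type CD71-negative replicate 2 or 3 or wild-type CD71-positive replicate 1 (adjusted p up to 0.067). Of 4 tested ubiquitin and E1 genes, Rps27a, which encodes a ubiquitin fused to a ribosomal protein, was higher in mutants by 1.79 (3.47-fold, adjusted p = 3e-05). In wild type Rps27a was higher by 1.24 ± 0.15. No mutant CD71-negative array and 1 mutant CD71-positive array detected it, with detection on 4 arrays in all. The polyubiquitin gene Ubb was lower in mutants (-0.36 ± 0.11). The Ubb call was kept in 12 of 21 alternatives and lost without any one of the mutant arrays but CD71-negative replicate 3 (adjusted p up to 0.111). Of 3 tested regulators of proteasome genes, Nfe2l1 was lower in wild type (-0.69 ± 0.17, adjusted p = 0.0162, but 0.0609 without wild-type CD71-positive replicate 1) and differed by -0.25 ± 0.17 in mutants, while Nfe2l2 and Mafg passed in neither. Apart from Psmb9, no gene of these lists passed between mutant and wild type in either subset.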

How the data were processed

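For 12 arrays the authors deposited unnormalised intensity on a linear scale, 1 value per symbol (18138 in all), each with its detection p-value, per the file headers. The array model, the probes behind a symbol and the genome build are not given in the sources used here. A further table the authors deposited, with processed intensity for 18132 symbols (RMA, per the submitters' processing notes), served as an alternative. Signals were corrected and normalised with neqc (background from the detection p-values, offset 16) in limma 3.58.1 under R 4.3.3, and because of the offset, fold changes of weak signals come out too small. Symbols detected (p under 0.05) on 3 or more arrays were tested, in 1 fit over all 12 arrays with a mean per group (lmFit, eBayes), two-sided, with Benjamini-Hochberg adjustment per contrast. The fit was tested on simulated data. The members, the gene lists (115 symbols) and the tests were chosen with earlier results of these data known. By a set rule the text gives every array's value for the catalytic genes, the activators and the extremes of each class by mean CD71 difference, and up to 3 genes per further list by p; Psmb2, Psmd12, Psmd13 and Psmc3ip were added after their values were seen. Promoter windows were scanned in python 3.11.15. Alternatives covered normalization, background, source table, filters, variance model, array weights, replicate block, samples in the fit and each array left out.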

Additional observations from a re-analysis of the deposited data

Results flagged for a closer look

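Psmd7 was singled out because its genotype difference pointed opposite ways in the subsets on every array. All 3 mutant CD71-positive arrays were above the wild-type ones (0.10 ± 0.05), and all 3 mutant CD71-negative arrays were below the wild-type ones (-0.13 ± 0.05). The test of the difference between these values gave 0.23 ± 0.07 with an adjusted p of 0.636 in limma (unadjusted 0.0126), so it did not pass among 8247 genes. Of the 33 proteasome genes it was the one with this pattern.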

How the results depend on the processing

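Of 4044 values of single proteasome genes under the alternatives, 3906 kept their side of the threshold, 89 lost a call and 49 gained one. No called value changed sign, while 189 uncalled values did. Most of the 4044 had no call to lose. Of 198 main values, only the CD71 calls, 15 in mutants and 19 in wild type, could lose one. All 89 losses fell among these. The count of genes called between mutant and wild type was 0. With array weights it became 2 (6.06%, against 2.51% of all genes) in CD71-positive cells and 1 (3.03%, against 5.59%) in CD71-negative cells. Over both subsets no background correction, array weights or a replicate block each gave 1 (3.03%). The all-gene shares there were 1.22%, 6.72% and 0.922%. Leaving out 1 array gave 0 to 1 over both subsets, with 0.327% to 1.5% of all genes called, and 0 in each subset. The CD71 count was 15 in mutants (45.5%, against 28.8% of all genes) and 26 with array weights (78.8%, against 52.8%). Under the other settings it was 13 to 17 (of 25 or 33 tested), with 11.5% to 42.2% of all genes called. Leaving out 1 array gave 12 to 16, with 21.6% to 30.4%. In wild type the count was 19 (57.6%, against 25.1%) and 11 with only the groups compared (33.3%, against 18.5%). Leaving out 1 array gave 10 to 19 there, with 18.5% to 26.2% of all genes called. All-gene calls ran from 1698 of 4023 genes (42.2%, those detected on all 12 arrays) to 4358 of 8247 (52.8%, array weights) in mutants. In wild type they ran from 1485 of 4023 (36.9%) to 2408 of 8247 (29.2%) under the same settings. The lowest shares, 11.5% in mutants and 9.78% in wild type, came with no filter on dim genes (18138 tested). The test of the difference gave 0 throughout. Over all genes, the calls between genotypes moved from 35 to between 2 and 461 in CD71-negative and from 35 to between 2 and 207 in CD71-positive cells. The median CD71 difference was 0.69 in mutants over genes detected on all 12 arrays, 0.53 there with array weights, and 0.38 in wild type with no background correction. The first of these was also the median of those 25 genes in the main fit, where the 8 genes detected on 3 to 11 arrays had -0.01. The cause of the other moves was not tested. With a replicate block the counts were 15 in mutants and 17 in wild type. Same-numbered arrays correlated between -0.41 and 0.59 in their deviations from group means, over 0.1 for 11 of 18 pairs. Such mixed values over so few arrays cannot settle whether the numbers pair the samples. Detection limits the rest: 13 of the 38 genes were undetected on at least 1 array. Not all of these were dim, as Psmb2 had levels of 8.40 to 9.73.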
